A study of Ambystoma californiense with 99 samples.

Results

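The cytosolic ribosomal proteins are the protein part of the ribosome. The members described here were chosen by name alone from the gene names of the deposited count tables: names beginning RPL, RPLP or RPS followed by a digit, or beginning RPSA, in any case and with a trailing .L or .S dropped. Of the 23251 features of the tables, 67 had such a name after 8 features of the RPS6K kinases were left out. A mean of at least 1 CPM (counts relative to the library total) in a tissue was then required. This left 60 members in brain and 61 in leg muscle, 62 in either and 59 in both. Just inside that limit were rpsa.S (AMEXTC_0340000070788) in brain at 1.25 CPM and RPL13A (AMEXTC_0340000050864) in muscle at 2.34 CPM. Just outside it were RPS19 in brain at 0.880 CPM and rpsa.S (AMEXTC_0340000070788) in muscle at 0.688 CPM.

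A ribosome reads messenger RNA with its small subunit, built with the RPS proteins, and joins amino acids in its large subunit, built with the RPL proteins and the RPLP proteins of the stalk where elongation factors dock. Cells make these proteins in near equal amounts and degrade what is not built in. In vertebrates their messenger RNAs begin with a terminal oligopyrimidine (TOP) tract that places their translation under mTOR and LARP1. Genomes also carry many processed pseudogenes and near copies of these genes, so that one symbol can label several gene models. Reads of near-identical copies can be split between them or lost in the counting, and the level of any single copy is uncertain for this reason.

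The study measured poly(A) RNA from whole brain and leg muscle of California tiger salamanders (CTS, Ambystoma californiense), barred tiger salamanders (BTS), F1 hybrids of the pair and some backcrosses (CTSbc, BTSbc). Heated animals had undergone acute warming up to the loss of the righting response, judged over 30 seconds, and controls had not. Brain gave 5 control and 5 heated CTS libraries, 5 and 6 BTS libraries, and 13 and 10 F1 libraries. Muscle gave 5 and 5, 5 and 6, and 13 and 12. Each tissue also gave 1 BTSbc control, 2 heated BTSbc and 1 heated CTSbc, which are given as single values. They were placed by their tags, and the titles differ: animals 12 and 26 (BTSbc) are titled BTS, and animals 30 (BTSbc) and 84 (CTSbc) are titled F1. Both sexes were included, with 30 female and 14 male brain libraries and 32 and 14 muscle libraries in the compared groups. Sex was not balanced with heat within the parent species. In both tissues males were more frequent in BTS controls than in heated BTS, and in heated CTS than in CTS controls. The main model held a term for sex. The labels name no age.

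Counted reads ran from 3213005 to 13506066 per brain library, except for heated F1 animal 16 with 5418, and from 1232774 to 20068304 per muscle library, except for heated F1 animal 11 with 66186. These shallow libraries were left out of the shares, the levels by group and the correlations below, and kept in the fits. They were also kept in the group medians used to compare the share between the tissues of an animal. The mean level of a member over a tissue included every library, the shallow ones and the backcrosses among them. Membership and the ranges of level rest on those means. Brain library 16 also went against its label, with skeletal muscle markers at 144887 CPM and neuron markers at 369 CPM. In the other brain libraries of the compared groups muscle markers summed to 18.9 to 287 CPM, and to 1973 CPM in heated CTS animal 7. In muscle, neuron markers summed to 666 CPM in CTS control 66, and markers of epidermis and connective tissue to 1813 CPM in heated CTS animal 7, 1382 CPM in heated F1 animal 2, 1026 CPM in CTS control 63 and at most 978 CPM in the others. An alternative that left out libraries for markers of another tissue took out brain 7, muscle 63, 66, 68 and 25 and the shallow libraries. This set was chosen with earlier results known and not by a limit on these sums: muscle 68 and 25 were at 687 and 694 CPM, below muscle 7, 2, 14, 91 and 67, which were kept. Animal 76 is titled BTS and tagged CTS and is placed in heated CTS by its tag. F1 animal 64 carries a control label for its brain and a heat label for its muscle. In whole-tissue RNA, fewer cells of a type and less RNA per cell cannot be told apart.

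Members of both subunits were found in each tissue. Brain had 36 members named for the large subunit and 23 for the small one, and muscle 37 and 23. Each tissue also had RPS19BP1, which the name rule takes in but which encodes a protein that binds RPS19 and is not part of the ribosome. Of 79 ribosomal protein names looked for, 47 had a feature and 43 had a member. The symbols RPL3L, RPL22L1, RPL39L, RPL10L and RPS27L, paralogs used in particular tissues of mammals, matched no feature. RPL7L1, a paralog with a role in building the large subunit, was a member at 41.8 CPM in brain and 43.8 CPM in muscle. RPL26L1, also a paralog by its symbol, was a member at 311 CPM in brain and 411 CPM in muscle.

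In brain the highest mean levels were 1292 CPM for rpsa.S (AMEXTC_0340000227252), which binds the small subunit and is also known as the laminin receptor, 877 CPM for RPL4, 843 CPM for rpl3, 690 CPM for RPS6, the small-subunit target of S6 kinases, and 586 CPM for rps2. In muscle they were 1006 CPM for RPL4, 901 CPM for rps2, 784 CPM for RPS6, 721 CPM for rpsa.S (AMEXTC_0340000227252) and 579 CPM for RPL10 (AMEXTC_0340000053070). These levels are not divided by gene length, which the tables do not give, so that they do not rank the genes by the number of RNA molecules.

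The members fell into 2 ranges of level with a gap between them. The 48 members of the higher range had means of 41.8 CPM or more in each tissue, and the other 14, of which 12 were members in brain and 13 in muscle, had means of 17.7 CPM or less. The limit of 20 CPM used to part them was set after the values were seen. Most of the low range were second and later copies of a symbol: 14 symbols had more than 1 feature, 29 features in all. RPL27A, a large-subunit protein, had 3 copies with means of 193, 17.7 and 3.56 CPM in brain and 246, 15.1 and 9.58 CPM in muscle. RPL13A, a large-subunit protein that in mammals can also leave the ribosome to silence inflammatory messages, had copies at 307 and 3.34 CPM in brain and 330 and 2.34 CPM in muscle. The stalk base rplp0.L had copies at 429 and 0.542 CPM in brain and 468 and 2.37 CPM in muscle. The small-subunit protein RPS19, whose mutation causes Diamond-Blackfan anaemia in humans, had a mean of 3.14 CPM in muscle.

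Together the members took up between 0.641% and 2.53% of the counted reads of a brain library, with a median of 1.64% and a 3.95-fold spread, and between 0.467% and 3.18% of a muscle library, with a median of 1.68% and a 6.81-fold spread. In brain the share was 1.34% ± 0.432 (SD, n = 5) in CTS controls and 1.23% ± 0.721 (SD, n = 5) in heated CTS. It was 1.92% ± 0.303 (SD, n = 5) and 1.68% ± 0.585 (SD, n = 6) in BTS controls and heated BTS, and 1.41% ± 0.495 (SD, n = 13) and 1.58% ± 0.563 (SD, n = 9) in F1. The groups overlapped, and within heated CTS the share was 0.789% at the median and 2.31% in animal 7, the brain library with raised muscle markers. Whether muscle RNA had a part in that share was not tested.

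In muscle the share was 1.25% ± 0.616 (SD, n = 5) in CTS controls and 0.783% ± 0.186 (SD, n = 5) in heated CTS. It averaged 1.89% over the 5 BTS controls, which ran from 0.874% to 3.16%, and was 1.47% ± 0.574 (SD, n = 6) in heated BTS, and 1.54% ± 0.519 (SD, n = 13) and 2.03% ± 0.618 (SD, n = 11) in F1. All 5 heated CTS libraries, from 0.467% to 0.951%, lay below all 11 heated F1 libraries, from 0.995% to 3.18%, while both control groups overlapped. The ratio of large-subunit to small-subunit reads moved far less, from 1.24 to 1.74 over brain libraries and from 1.32 to 1.91 over muscle libraries.

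**Figure D1:**
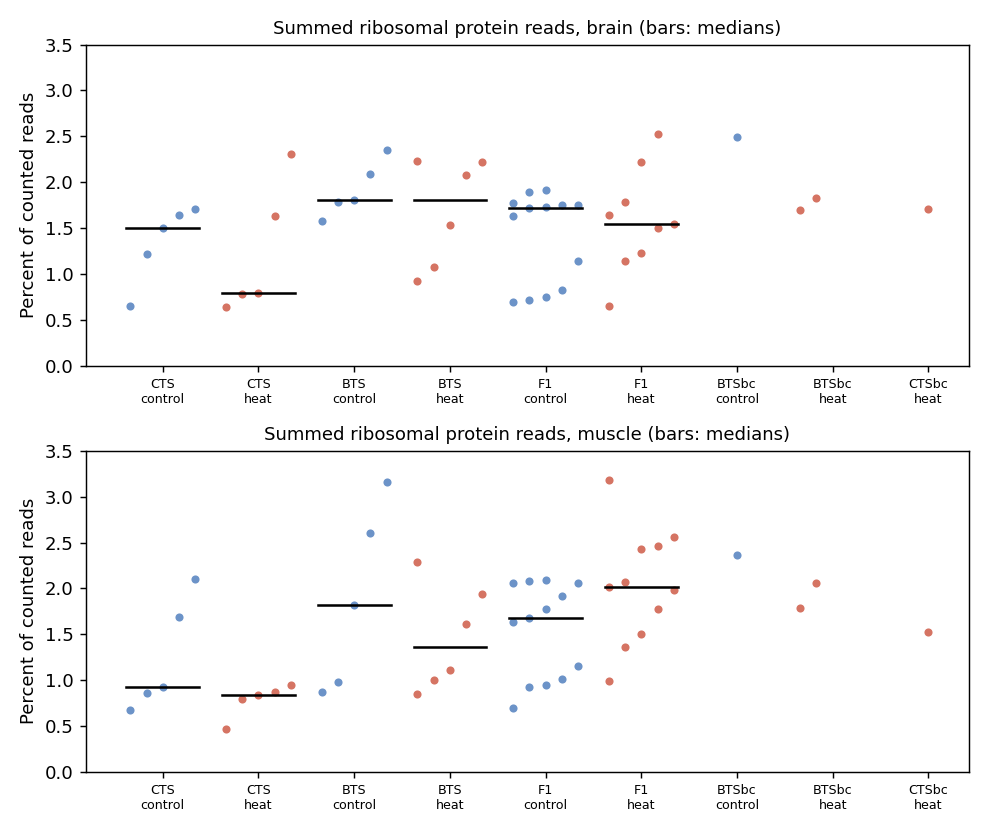
Summed reads of the ribosomal protein members as percent of all counted reads of a library, by genotype and treatment, in brain and in muscle. Points are libraries (blue control, red heated), bars are group medians, and backcrosses are single points. Most groups overlap, while the heated CTS muscles lie below all heated F1 muscles, over a range from 0.641% to 2.53% in brain and from 0.467% to 3.18% in muscle.

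The share in brain and in muscle of the same animal was also compared. Backcrosses were left out of this comparison. Of 40 animals with both tissues under the same tags and no shallow library, 19 had a share on the same side of the group median in both tissues, 14 on opposite sides, and 7 were at the median in a tissue.

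Most members rose and fell together from library to library. After the mean of its group was taken off each log2 CPM value, the mean Pearson correlation over pairs of the 48 higher-level members was 0.886 over 43 brain libraries and 0.886 over 45 muscle libraries. It was 0.373 in brain and 0.584 in muscle over pairs of the low-level members. These correlations describe libraries that also differ in depth and in the share of their most abundant genes.

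Close to the mean of all members was RPL10 (AMEXTC_0340000053070), a late-joining protein of the large subunit, in brain, with r = 0.99, and it followed that mean at 0.97 in muscle. The stalk base rplp0.L (AMEXTC_0340000065047) followed the mean at 0.97 in brain and 0.94 in muscle. RPL4, which lines the exit tunnel, followed it least among the higher-level members, at 0.79 in brain and 0.57 in muscle. Of the low-level members, RPL13A (AMEXTC_0340000050864) did not follow the others in muscle (r = 0.01). RPS19BP1 was at 0.20 in brain and 0.36 in muscle.

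Outside the name rule, the brain features most like the members' mean were 2 features without a gene name (AMEXTC_0340000250610 at r = 0.98 and AMEXTC_0340000051107 at 0.97), zgc:153867 (0.96), LIAS_2 (0.96) and Atp5b (0.96), a mitochondrial ATP synthase subunit, over 43 libraries and among 15435 features compared. In muscle they were LOC100337691 (0.96), LOC106596048 (0.96), LIAS_2 (0.96), LOC106589173 (0.94) and LOC102946679 (0.94), among 12491 features. At the other end, chosen after their values were seen, SPTBN1, a long spectrin of the membrane skeleton, ran opposite to the members' mean at -0.90 in brain and -0.83 in muscle. Other opposite features were NAV3 (-0.90), PRRC2C (-0.90) and APC (-0.89) in brain, and myh9 (-0.82), SRCAP (-0.79) and DOCK11 (-0.77) in muscle. Neither gene length nor RNA quality entered these correlations, and their part in the shared movement was not tested.

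The parent species were compared first. BTS was set against CTS, averaged over control and heated animals, in edgeR's quasi-likelihood fit over all compared libraries of a tissue, with Benjamini-Hochberg adjustment over all features and a threshold of 0.05. In brain 57 of 60 members had a higher fitted level in BTS, and 15 passed the test, 13 higher and 2 lower in BTS. The share passing among all brain features was 35.2%, with 18.1% higher and 17% lower, so that the members passed no more often than features at large. Their median log2 difference was 0.52, against -0.01 for all features.

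In muscle 55 of 61 members had a higher fitted level in BTS, and 29 passed, 27 higher and 2 lower. The share passing among all muscle features was 46.6%, with 22.6% higher and 24% lower. The members' median log2 difference was 0.69, against -0.02 for all features. Of 59 members tested in both tissues, 52 had a higher fitted level in BTS in both, and 8 passed in both with the same sign, which is 57.1% of the 14 that passed in brain and 27.6% of the 29 in muscle. Among all features 46.6% passed in muscle and 35.2% in brain. Their overlap between tissues is not given here, so that of the members is not read as particular to them.

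Both subunits were among the calls. In brain 11 of 36 large-subunit and 3 of 23 small-subunit members passed, and in muscle 16 of 37 and 12 of 23. Higher-level members made up 9 of the brain calls, of 48 tested, and 26 of the muscle calls, of 48. Low-level members made up 6 of 12 tested in brain and 3 of 13 in muscle.

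These counts leaned on a few libraries. How calls over all features moved in the same fits is not given here, so the moves are not read as particular to the members. Without heated CTS animal 7, 36 brain members passed. Without BTS control 68, 18 muscle members passed. Left out together with the other libraries that held markers of another tissue, they gave 36 brain members, 34 higher and 2 lower in BTS, but only 6 muscle members, 4 higher and 2 lower. The members' median was then 0.72 in brain and 0.34 in muscle. With each library scaled to the summed reads of the members, an alternative chosen after the data were seen, the median over all features became -0.69 in brain and -0.50 in muscle, and 8 members passed in brain, 2 higher and 6 lower, and 14 in muscle, 8 higher and 6 lower. That scaling takes out, by its construction, any difference that the members share.

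**Figure D2:**
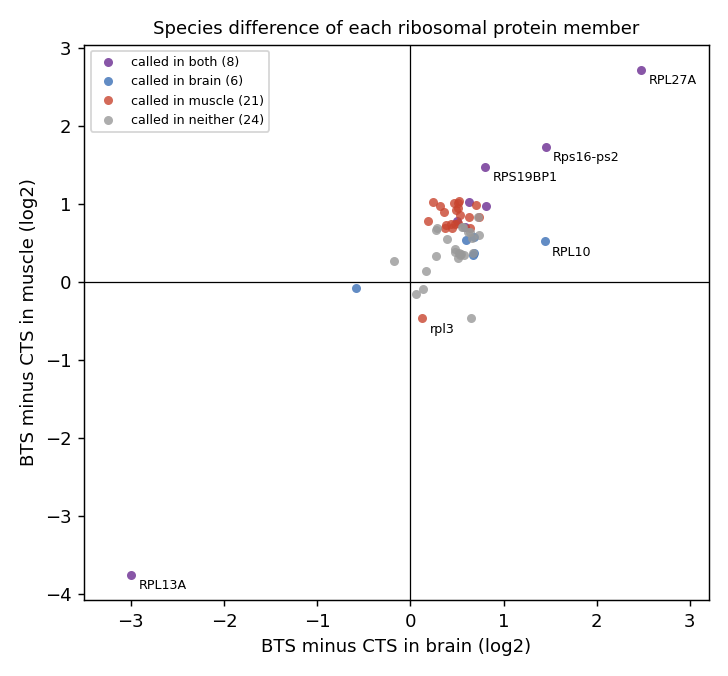
Fitted log2 difference of BTS minus CTS for each member in brain (horizontal axis) and in muscle (vertical axis), with members that passed the test in brain, muscle or both marked. Most members lie above 0 on both axes with medians of 0.52 in brain and 0.69 in muscle (0.34 in muscle without the libraries with markers of another tissue), and the middle copy of RPL27A and the low copy of RPL13A lie farthest from the rest, in opposite corners.

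The middle copy of RPL27A, RPL27A (AMEXTC_0340000005743), parted the species completely. In brain it was at 4.76, 5.13, 5.30, 7.54 and 9.65 CPM in the CTS controls and 2.88, 3.70, 4.59, 9.13 and 11.6 CPM in heated CTS. It was at 29.7, 37.5, 41.2, 43.6 and 49.9 CPM in the BTS controls and at 20.5, 32.1 and 49.5 CPM (lowest, median and highest of 6) in heated BTS. Every BTS brain lay above every CTS brain.

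In muscle RPL27A (AMEXTC_0340000005743) was at 1.82, 2.31, 3.48, 5.47 and 7.24 CPM in the CTS controls and 1.48, 2.98, 3.78, 4.94 and 5.51 CPM in heated CTS. It was at 12.7, 16.7, 38.1, 40.5 and 45.8 CPM in the BTS controls and at 11.3, 22.3 and 30.1 CPM (lowest, median and highest of 6) in heated BTS. Again no BTS library overlapped a CTS library. The fitted log2 difference was 2.48 (SE 0.27, adjusted p = 1.15e-09) in brain and 2.71 (SE 0.29, adjusted p = 2.15e-10) in muscle, or 5.57-fold and 6.56-fold. It passed under every alternative run, controls only and heated animals only included, with adjusted p up to 4.06e-05 in brain and 6.06e-06 in muscle.

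F1 hybrids lay between the parents for RPL27A (AMEXTC_0340000005743) and overlapped both. In brain the lowest, median and highest were 7.00, 14.1 and 26.6 CPM in the 13 F1 controls and 7.71, 14.5 and 37.8 CPM in 9 heated F1. In muscle they were 4.56, 11.8 and 23.7 CPM in 13 controls and 8.91, 13.6 and 29.8 CPM in 11 heated F1. The BTSbc control was at 33.2 CPM in brain and 27.3 CPM in muscle, the heated BTSbc at 16.9 and 18.2 CPM and at 12.2 and 14.6 CPM, and the heated CTSbc at 5.89 and 3.32 CPM. Only the CTSbc lay within the CTS range, and the heated BTSbc lay below all BTS libraries in brain and within their range in muscle.

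The other copies of RPL27A did not pass the test between species. The most abundant, RPL27A (AMEXTC_0340000070861), was at 174 ± 65.6 CPM (SD, n = 5) in CTS and 225 ± 27.8 CPM (SD, n = 5) in BTS control brain, and the fitted log2 difference was 0.27 (adjusted p = 0.455) in brain and 0.33 (adjusted p = 0.346) in muscle. For the least abundant, RPL27A (AMEXTC_0340000067525), it was 0.55 (adjusted p = 0.238) and 0.36 (adjusted p = 0.527). Reads of 1 copy can be assigned to another where the species differ in sequence, and whether this had a part in the difference was not tested.

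The low copy of RPL13A, RPL13A (AMEXTC_0340000050864), went the other way. It was near 0 in every BTS library, from 0 to 1.08 CPM in brain and from 0 to 0.397 CPM in muscle. In CTS brain it was at 0, 0.151, 0.430, 0.658 and 7.54 CPM in controls and 0.168, 4.71, 13.5, 14.0 and 21.0 CPM in heated animals. In CTS muscle it was at 0, 0, 0.0916, 0.364 and 9.88 CPM in controls and 0, 2.32, 3.31, 5.30 and 8.71 CPM in heated animals. No CTS library lay between 0.658 and 4.71 CPM in brain or between 0.364 and 2.32 CPM in muscle.

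The high libraries were the same animals in both tissues. With a limit of 2 CPM, set after the values were seen, RPL13A (AMEXTC_0340000050864) was over it in both tissues in 10 of 45 animals, under it in both in 35, and on different sides in 0. Animals with a shallow library were not counted, while backcrosses and animal 64 were. The lowest value over the limit was 4.71 CPM in brain and 2.32 CPM in muscle, and the highest value under it was 1.88 and 0.401 CPM. The 10 animals were CTS control 57, heated CTS 4, 7, 14 and 76, F1 control 19 and heated F1 2, 6, 86 and 91. Of these, animal 76 carries BTS in its title, and no other animal titled or tagged BTS or a backcross was among them.

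RPL13A (AMEXTC_0340000050864) met the limit of 1 CPM for members only through the animals where it was high, none of them tagged BTS. Its lower value in BTS, among the 2 lower calls of each tissue, is in part a description of that choice. The fitted difference of BTS minus CTS for RPL13A (AMEXTC_0340000050864) was a log2 value of -3.00 (SE 0.95, adjusted p = 0.0114) in brain and -3.76 (SE 1.16, adjusted p = 0.00695) in muscle. Without CTS control 57 these were -1.77 (adjusted p = 0.285) and -1.57 (adjusted p = 0.503), and in controls only it passed in neither tissue, with adjusted p = 0.621 and 0.215. More of the 10 animals were heated than control, but heat did not pass the test in CTS or F1 in either tissue: the log2 change with heat was 2.97 in CTS brain (adjusted p = 1), 2.48 in F1 brain (adjusted p = 0.695), 1.31 in CTS muscle (adjusted p = 0.709) and 3.10 in F1 muscle (adjusted p = 0.242). The abundant copy, RPL13A (AMEXTC_0340000135861), had the opposite sign between species, 0.51 (adjusted p = 0.181) in brain and 0.95 (adjusted p = 0.00615) in muscle.

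**Figure D3:**
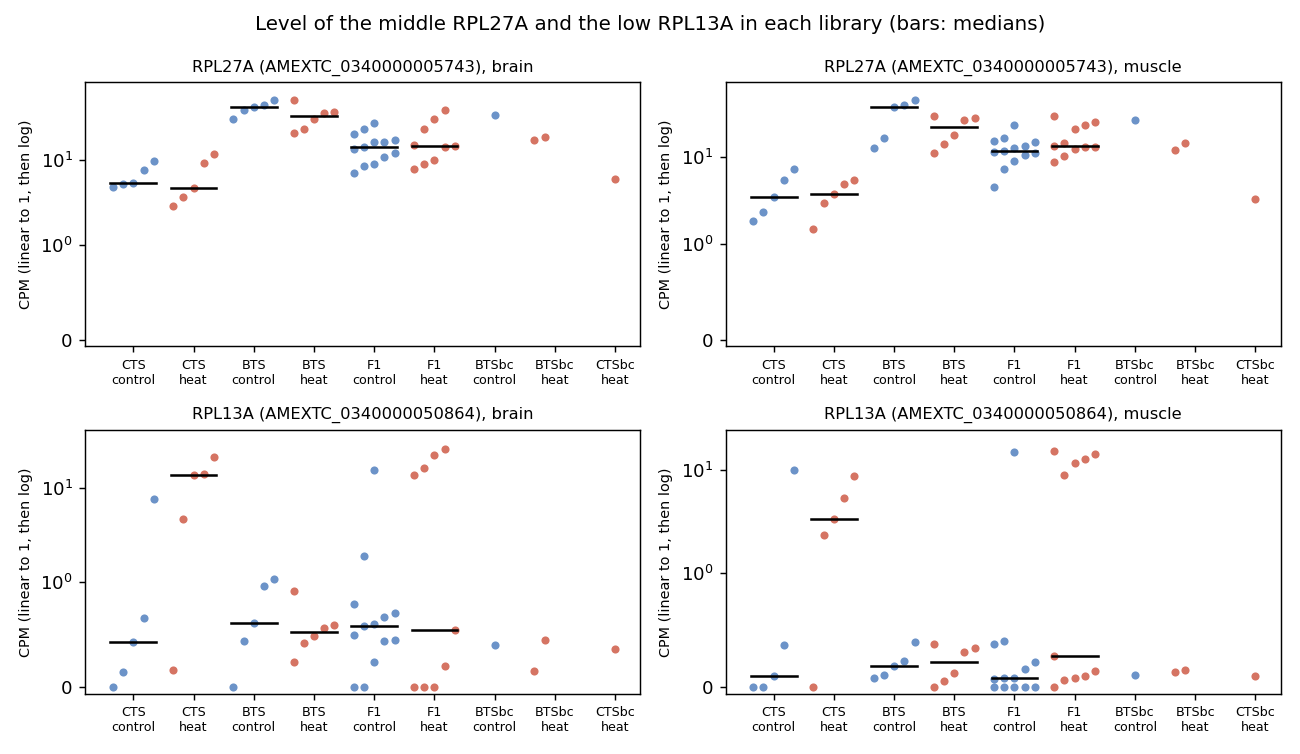
Level in each library, in TMM-scaled CPM on an axis that is linear up to 1 and logarithmic above, of the middle copy of RPL27A and the low copy of RPL13A in brain and in muscle, by genotype and treatment, with bars at group medians. RPL27A separates all CTS from all BTS libraries with F1 between them, while RPL13A is near 0 in all BTS libraries and is over 2 CPM in the same 10 animals in both tissues and, in muscle alone, in F1 animal 16, whose brain library is not shown.

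Among small-subunit members, Rps16-ps2 showed the largest difference between species. The name is that of a mouse pseudogene of the small-subunit protein RPS16, and the files give no other. In brain it was at 33.0, 49.9, 50.9, 54.7 and 87.3 CPM in CTS controls and 66.7, 116, 177, 178 and 215 CPM in BTS controls. In muscle it was at 18.2, 23.5, 26.7, 36.5 and 42.0 CPM in CTS controls and 46.5, 56.1, 136, 177 and 178 CPM in BTS controls. The control groups overlapped in brain through 1 library of each species and did not overlap in muscle. The log2 difference of Rps16-ps2 was 1.46 (SE 0.24, adjusted p = 4.06e-06) in brain and 1.73 (SE 0.28, adjusted p = 1.70e-06) in muscle. It passed under every alternative run, with adjusted p up to 0.00225 and 0.00316.

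RPL5, a large-subunit protein that carries a small ribosomal RNA into the ribosome and can hold back MDM2, was the next large-subunit member that passed in both tissues. In muscle RPL5 (AMEXTC_0340000139919) was at 155, 244, 277, 328 and 393 CPM in CTS controls, 197, 275, 382, 445 and 508 CPM in heated CTS, and 358, 438, 792, 959 and 1087 CPM in BTS controls. The CTS controls and BTS controls overlapped through the highest CTS and the lowest BTS library. RPL5 (AMEXTC_0340000139919) was higher in BTS by 0.63 (SE 0.20, adjusted p = 0.0106) in brain and 1.03 (SE 0.19, adjusted p = 2.55e-05) in muscle. In heated animals alone it passed in neither tissue, with adjusted p = 0.0533 in muscle. Its brain call was also lost with the members' scaling, and the adjusted p in brain was up to 0.756 over the alternatives.

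RPS19BP1, the binding partner of RPS19, was at 2.55 to 3.97 CPM in the 5 CTS control muscles and at 4.34, 9.74, 10.3, 10.3 and 20.6 CPM in the BTS control muscles, which did not overlap. It was higher in BTS by 1.47 (SE 0.26, adjusted p = 1.20e-05) in muscle and by 0.81 (SE 0.23, adjusted p = 0.00497) in brain, where it did not pass in heated animals alone or with the members' scaling.

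Other calls held under fewer settings. In muscle rpsa.S (AMEXTC_0340000227252) was higher in BTS by 0.98 (SE 0.28, adjusted p = 0.00396) and the small-subunit protein rps24 by 0.96 (SE 0.28, adjusted p = 0.00430). Both missed the threshold without the libraries that held markers of another tissue and in controls only, and rps24 also in heated animals only. In brain rps24 also passed, at 0.81 (adjusted p = 0.0264). The low copy RPL10 (AMEXTC_0340000054465) was higher in BTS brain by 1.44 (SE 0.41, adjusted p = 0.00479). This call was lost with the members' scaling and in controls only, with adjusted p up to 0.364. In muscle the same copy did not pass, at 0.52 (adjusted p = 0.561). The low copy rpsa.S (AMEXTC_0340000070788) was higher in BTS brain by 1.33 (SE 0.46, adjusted p = 0.0224), but not without BTS control 74 (adjusted p = 0.115). That call was also lost with the members' scaling, in controls only and in heated animals only, with adjusted p up to 0.301. Both low copies had brain means close to the limit of 1 CPM, at 1.62 and 1.25 CPM. Whether they met it only through BTS libraries was not tested, so their higher values in BTS may in part describe that choice. Lower in BTS muscle was rpl3, a protein of the large subunit near the site of peptide bond formation, with a log2 difference of -0.47 (SE 0.19, adjusted p = 0.0372). The call of rpl3 was lost when any of 10 single libraries was left out.

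The markers of the set and a paralog are given for both species, and whether the species difference itself differed between tissues was not tested. The stalk base rplp0.L (AMEXTC_0340000065047) was at 354 ± 124 CPM (SD, n = 5) in CTS and 515 ± 90.3 CPM (SD, n = 5) in BTS control brain. Over control and heated brains the fitted log2 difference was 0.49 (adjusted p = 0.167). In control muscle its level was 319 ± 180 CPM (SD, n = 5) in CTS and 593 ± 338 CPM (SD, n = 5) in BTS. Over control and heated muscles the fitted log2 difference was 0.91 (adjusted p = 0.0147). That call was lost without the libraries with markers of another tissue and with the members' scaling. It was also lost in controls only and in heated animals only, and the adjusted p was at most 0.163. RPL7L1 differed by 0.19 (adjusted p = 0.551) in brain and 0.77 (adjusted p = 0.00479) in muscle. The muscle call of RPL7L1 was lost under the same settings, with adjusted p up to 0.243. RPS19 did not pass in muscle, with 0.41 (adjusted p = 0.613).

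F1 hybrids were then set against the mean of the parents' fitted log2 levels. Where the parents differ this mean lies below the mean of their CPM, so that a value above it need not exceed that CPM mean. In brain 0 of 60 members passed in edgeR and 0 in DESeq2, 1 had an unadjusted p under 0.05, and 2.86% of all features passed. The members' median was -0.03 on the log2 scale, against 0.02 for all features. In muscle 1 of 61 passed, where 12.3% of all features did and 8.24% were higher in F1, 21 had an unadjusted p under 0.05 and DESeq2 called 5. The member was again RPL27A (AMEXTC_0340000005743), higher in F1 than the mean of the parents' log2 levels by 0.54 (SE 0.19, adjusted p = 0.0487). Between the parents this copy differed by 2.71 on the log2 scale in muscle, and whether F1 lay above the mean of their CPM was not tested. The call of RPL27A (AMEXTC_0340000005743) missed the threshold when any of 11 CTS or BTS libraries was left out: CTS controls 57, 63 and 66, heated CTS 4, 14 and 76, BTS controls 74 and 80, and heated BTS 53, 78 and 90. The count became 2 without heated CTS 13 or CTS control 77 and 3 without heated BTS 75. All 48 higher-level members had a fitted value above the parental mean in muscle, and the median over members was 0.31, against 0.01 for all features, but no other member passed.

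No member passed the test of heat in brain. In the mean heat response over the 3 genotypes 0 of 60 members passed in edgeR and 0 in DESeq2, with 0.0968% of all features passing and 3 members at an unadjusted p under 0.05. The counts were 0 in both tools within CTS (0% of all features, 4 members at an unadjusted p under 0.05), within BTS (0% of all features, 1 member) and within F1 (0.0516% of all features, 1 member). The heat response did not pass as different among genotypes for any member (0% of all features, 0 members at an unadjusted p under 0.05, 0 in DESeq2).

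The fitted heat values in brain still had a common sign within a genotype. The median log2 change was -0.10 in CTS, with 50 of 60 members below 0, -0.23 in BTS, with 55 below 0, and 0.18 in F1, with 58 above 0, against -0.01 for all features in F1, of which 48.3% were above 0. All 48 higher-level members were above 0 in F1, from 0.01 to 0.45. Because the members moved together from library to library, a common sign over members is not a count of separate observations. The CTS median was 0.12 without heated animal 76, -0.49 without the libraries holding markers of another tissue and -0.60 in a fit of only the CTS groups.

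In muscle the mean heat response passed in 3 of 61 members, all lower in heated animals, where 0.757% of all features passed and 0.534% were lower. Another 6 were at an unadjusted p under 0.05, making 9. The members' median was -0.22, with 53 below 0, against -0.01 for all features. Within a genotype no member passed in edgeR or DESeq2: in CTS 5 members were at an unadjusted p under 0.05 (0.39% of all features passed), in BTS 9 (0.0159%) and in F1 1 (0.119%). In BTS 1 passed without BTS control 74. The test of a different response among genotypes gave 0 members (0.0478% of all features, 4 members at an unadjusted p under 0.05, lowest adjusted p = 0.320, 0 in DESeq2).

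The fitted values in muscle had the same pattern of sign as in brain. The median log2 change was -0.39 in CTS, with 51 of 61 below 0, -0.49 in BTS, with 61 of 61 below 0, and 0.20 in F1, with 53 above 0. The CTS median was -0.21 without animal 76, -0.69 without the libraries with markers of another tissue and -0.65 in a fit of only the CTS groups, and the BTS median was -0.89 in a fit of only the BTS groups. The 48 higher-level members ran from -1.02 to 0.41 in CTS, from -0.79 to -0.10 in BTS and from 0.06 to 0.39 in F1. The abundant rplp0.L (AMEXTC_0340000065047) was an instance, at -0.56 in CTS, -0.48 in BTS and 0.24 in F1. The difference in heat response between tissues was tested in a joint fit, where 0 of 62 members passed in edgeR and 0 in DESeq2, 4 had an unadjusted p under 0.05 and 0.221% of all features passed.

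**Figure D4:**
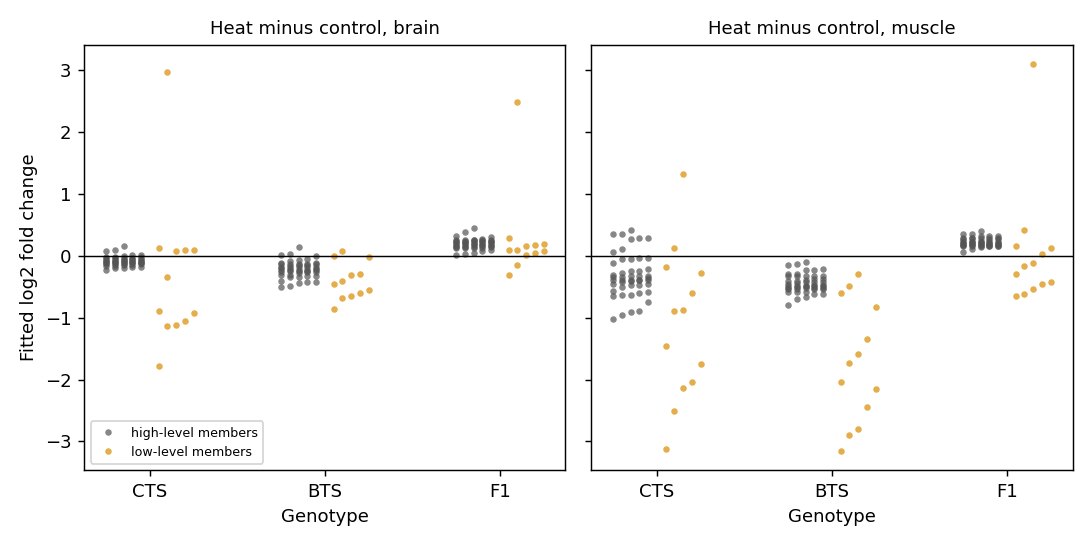
Fitted log2 change with heat of each member within CTS, BTS and F1, in brain and in muscle, with the 48 higher-level members in grey and the low-level ones in orange. Members lie mostly below 0 in CTS and BTS (medians -0.10 and -0.23 in brain, -0.39 and -0.49 in muscle) and above 0 in F1 (0.18 and 0.20), and no member passed the test within a genotype.

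The 3 members that fell with heat in muscle were of low level: RPS19, the only feature of that symbol, and low copies of RPL27A and rplp0.L. The mean of RPS19 in muscle was 3.14 CPM, where every higher-level member had 41.8 CPM or more. Whether this gene model stands for the main RPS19 message was not tested, so its change is not read as that of RPS19 as a whole. The log2 change of RPS19 with heat was -1.98 (SE 0.45, adjusted p = 0.0272), that of the low copy RPL27A (AMEXTC_0340000067525) was -1.40 (SE 0.32, adjusted p = 0.0272) and that of the low copy rplp0.L (AMEXTC_0340000065778) was -2.15 (SE 0.51, adjusted p = 0.0304).

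For RPS19 the controls were widely spread and the heated animals were not. It was at 0.0789, 0.728, 6.21, 10.7 and 25.7 CPM in BTS controls and at 0.415, 0.873 and 2.26 CPM (lowest, median and highest of 6) in heated BTS. It was at 0.408, 0.728, 3.49, 6.47 and 16.0 CPM in CTS controls and at 0.278, 0.318, 0.993, 1.72 and 1.83 CPM in heated CTS. In each species 3 controls lay above every heated animal and the other 2 did not. In F1 the lowest, median and highest were 0.381, 1.43 and 7.18 CPM in 13 controls and 0.327, 1.65 and 5.68 CPM in 11 heated animals, which overlapped throughout.

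The low copy of the stalk base, rplp0.L (AMEXTC_0340000065778), was at 0.237, 0.546, 6.42, 13.7 and 19.5 CPM in BTS controls and up to 2.26 CPM in heated BTS. It was at 0, 0.546, 3.01, 4.69 and 12.8 CPM in CTS controls and up to 1.01 CPM in heated CTS. RPL27A (AMEXTC_0340000067525) was at 2.52, 4.00, 18.7, 27.0 and 62.2 CPM in BTS controls and up to 6.91 CPM in heated BTS, and at 2.18, 4.22, 10.9, 14.2 and 44.3 CPM in CTS controls and up to 9.18 CPM in heated CTS. The same pattern of a few high controls over low heated animals was present in each.

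Per genotype the fitted log2 changes were -2.51 in CTS, -2.89 in BTS and -0.53 in F1 for RPS19, and -3.12, -3.15 and -0.16 for rplp0.L (AMEXTC_0340000065778). They were -1.75, -2.15 and -0.30 for RPL27A (AMEXTC_0340000067525). The test of a different heat response among genotypes passed for none of them.

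These calls rested on single libraries. The count was 0 without heated CTS 7, BTS control 68 or CTS control 83, 5 without heated BTS 38, 6 without CTS control 66, and 7 without BTS control 74 or 80. RPS19 and rplp0.L (AMEXTC_0340000065778) missed the threshold without the libraries holding markers of another tissue, at adjusted p = 0.0566 and 0.0659. BTS control 68, with the highest level of all 3, had epidermis and connective tissue markers at 687 CPM against a BTS control mean of 457 ± 213 CPM (SD, n = 5), and CTS control 83 had neuron markers at 75.9 CPM. Heated CTS 7, whose epidermis and connective tissue markers were at 1813 CPM, was low in all 3. The part of these markers in the result was not tested.

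**Figure D5:**
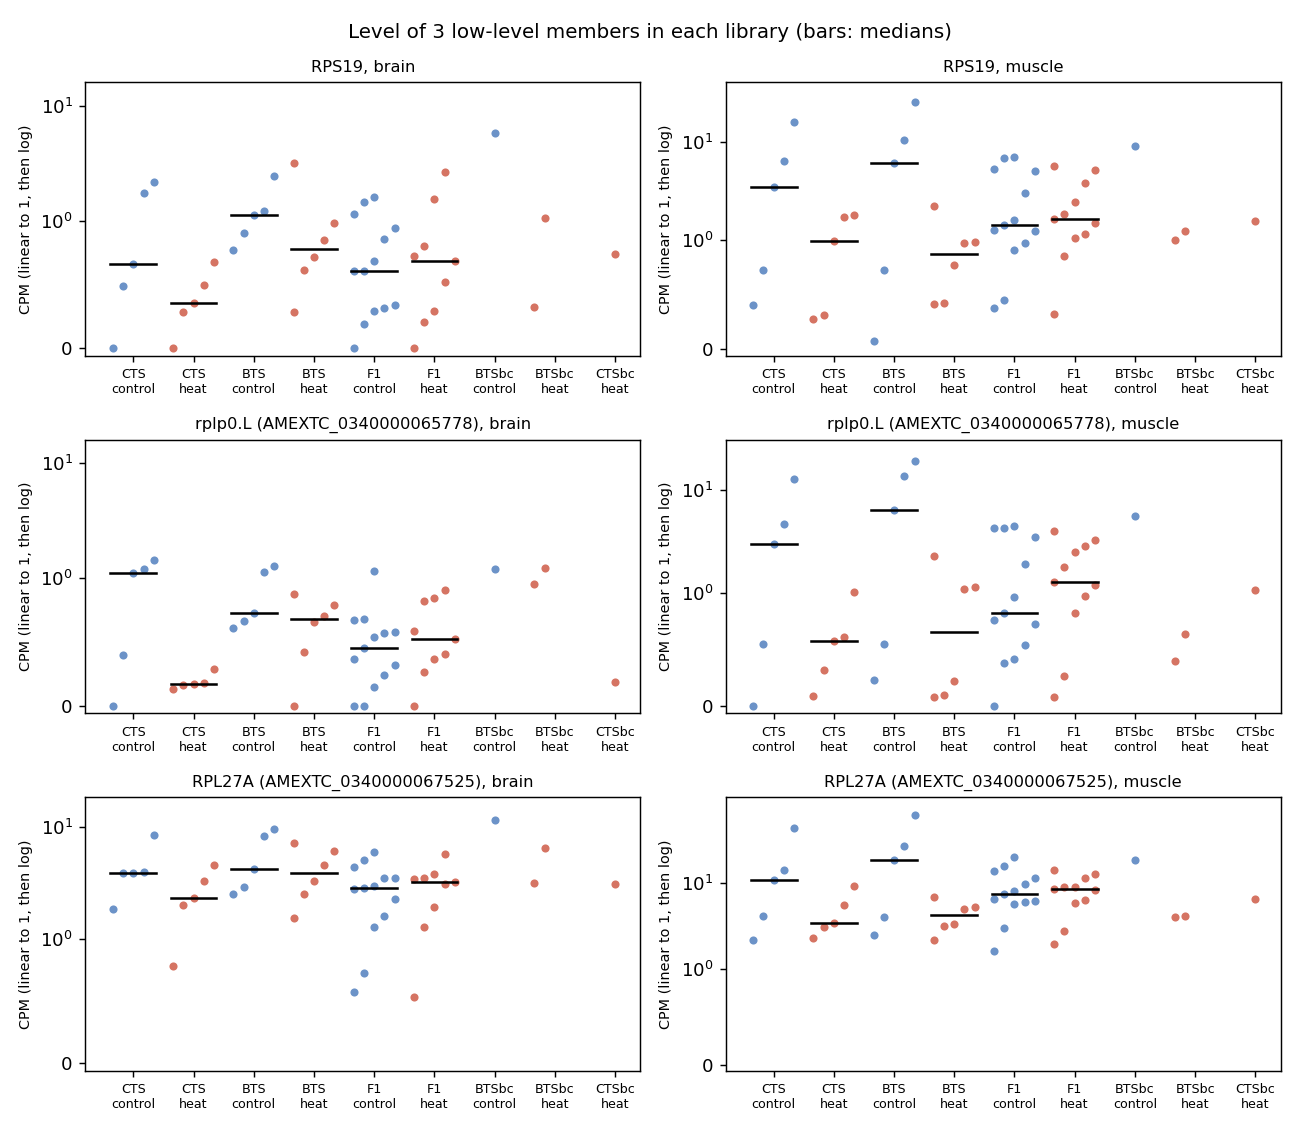
Level in each brain and muscle library, in TMM-scaled CPM on an axis that is linear up to 1 and logarithmic above, of RPS19 and the low copies of rplp0.L and RPL27A, by genotype and treatment, with bars at group medians. In each muscle panel 3 controls of CTS and 3 of BTS reach above every heated library of their species, as for RPS19 with up to 25.7 CPM in BTS controls against 2.26 CPM in heated BTS, while F1 controls and heated animals overlap.

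Many low-level members moved together in muscle. After group means were taken off, RPS19 correlated over 45 muscle libraries at 0.93 with rplp0.L (AMEXTC_0340000065778), 0.93 with rpl3.L, 0.92 with RPL5 (AMEXTC_0340000056995), 0.91 with RPL27A (AMEXTC_0340000067525), 0.91 with RPL10 (AMEXTC_0340000054465), 0.86 with rps25 and 0.82 with rpl18. Outside the name rule, RPS19 was closest to LOC109899775 (0.94), LOC108710820 (0.93), IQCG (0.92), LOC104469002 (0.92) and atp5g3 (0.92), another mitochondrial ATP synthase subunit. The low copy of rplp0.L was closest to LOC108710820 (0.94), IQCG (0.94), LOC104469002 (0.93), LOC104061926 (0.91) and tnnc2 (0.90), the troponin C of fast muscle fibres.

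The summed level of the low-level members in muscle was 193 ± 178 CPM (SD, n = 5) in BTS controls, from 39.8 to 468 CPM, and 115 ± 110 CPM (SD, n = 5) in CTS controls, from 24.7 to 297 CPM. It was 70.2 ± 24.1 CPM (SD, n = 6) in heated BTS, from 45.3 to 97.3 CPM, and 41.9 ± 15.6 CPM (SD, n = 5) in heated CTS, from 21.3 to 58.2 CPM. In F1 it was 86.7 ± 38.9 CPM (SD, n = 13) in controls and 100 ± 40.4 CPM (SD, n = 11) in heated animals. The highest BTS control was animal 68 and the highest CTS control animal 83, the libraries that also decided the heat calls.

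The tissues were compared in control animals. In the joint fit 55 of 62 members were lower in brain than in muscle and none higher, where 87.3% of all features differed and 17.1% were lower in brain. RPS19 and rplp0.L (AMEXTC_0340000065778), members only through their level in muscle, are among the 55. Of the 48 higher-level members, each a member in both tissues, 44 were lower in brain and 0 higher. The position of this comparison depended on the scaling, the filter and the shallow libraries. The members' median log2 difference was -1.07, against 1.37 for all features. With library totals and no further scaling 22 members passed, 10 higher and 12 lower in brain, and the medians were -0.05 and 2.36. With RLE scaling they were -0.39 and 2.02, with 6 members higher and 33 lower. Without the shallow libraries they were -2.11 and 0.33, without the libraries with markers of another tissue -2.17 and 0.39, and with no filter -2.23 and 0.19, with 61 members lower in each. Relative to the median of all features, the members stood at -2.44 with the scaling used, -2.41 with library totals and -2.43 without the shallow libraries. With the animal as a replicate block 56 members passed, 1 higher and 55 lower.

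Of the 14 low-level members 11 were lower in brain and 0 higher. RPS19 and rplp0.L (AMEXTC_0340000065778) became members only through their level in muscle, so that their values of -3.40 and -3.45 are a description of that choice. Both are among the 11. Of the low copies that were members in both tissues, RPL10 (AMEXTC_0340000054465) was lower in brain by -3.54, RPL5 (AMEXTC_0340000056995) by -3.36, RPL27A (AMEXTC_0340000067525) by -2.82 and rpl18 by -2.64, while RPL13A (AMEXTC_0340000050864) was at -0.12 (adjusted p = 0.913). The low copy rpsa.S (AMEXTC_0340000070788), a member only through brain, was at 0.15 (adjusted p = 0.651). Of the more abundant copies and a paralog the values were -1.11 for rplp0.L (AMEXTC_0340000065047), -1.78 for RPL5 (AMEXTC_0340000139919) and -0.99 for RPL7L1, all on the log2 scale of the same fit. Of the small-subunit members, rps2, which lies near the channel through which messenger RNA passes, was lower by -1.62.

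No member passed the test of sex. In edgeR 0 members passed in brain, where 0.0645% of all features did, and 0 in muscle, where 0.558% did. No member had an unadjusted p under 0.05 in either tissue, and DESeq2 called 0. The median log2 difference of males minus females was -0.01 in brain and 0.28 in muscle, where 58 of 61 members had a higher fitted value in males. Without the libraries with markers of another tissue the muscle median was 0.057.

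Genes that work with the ribosomal proteins were counted by feature over lists in the species comparison, so that a gene can count more than once. RACK1, a protein of the small subunit that the name rule misses, was higher in BTS by 0.71 (adjusted p = 0.0210) in brain and 0.49 (adjusted p = 0.0394) in muscle. Of 14 tested features of TOP genes and translation factors, 2 were higher in BTS brain and 6 in BTS muscle. In each tissue 0 were lower, where 18.1% and 22.6% of all features were higher. They included EEF1A1, the factor that brings transfer RNA to the ribosome, at 0.71 (adjusted p = 0.0169) in brain and 0.74 (adjusted p = 0.00402) in muscle, and EEF1G at 1.15 (adjusted p = 0.00232) in brain.

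Of 29 tested features of ribosome biogenesis genes, 7 were higher and 4 lower in BTS brain, and 7 higher and 1 lower in BTS muscle. Beside these stood 18.1% higher and 17% lower of all features in brain and 22.6% and 24% in muscle. NOB1, which cuts the last precursor of the small-subunit RNA, was higher by 0.88 in brain and 0.91 in muscle, and FBL, which methylates ribosomal RNA, was lower by -0.77 in muscle. Of 13 tested features of mTOR and LARP1 control genes, 6 were higher and 1 lower in BTS brain and 5 higher and 4 lower in muscle. The gene akt1s1 was among the higher ones in brain with more than 1 feature. Of all features 35.2% and 46.6% passed in either direction, and LARP1 itself was lower by -0.58 in muscle. In the mean heat response DDIT4, an inhibitor of mTOR complex activity, rose in brain by 0.98 (adjusted p = 0.0137). It was the only gene of these lists to pass there, and 0 passed in muscle.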

How the data were processed

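The authors deposited raw counts of reads by gene model. The libraries were stranded and made from poly(A) RNA, per the labels' protocols. Trimmomatic, FastQC, STAR and HTSeq are named in the submitters' processing notes, with no version. Counting options and genome build: not given in the sources used here. Column names matched 48 brain and 50 muscle columns to samples. For F1 animal 17 only muscle was analysed.

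Groups were taken from the genotype, treatment and tissue tags, and animals were separate within a tissue. The members and the gene lists were chosen with earlier results of these data known. Counts were tested in edgeR 4.0.16 (R 4.3.3) with TMM scaling, the filterByExpr filter, the quasi-likelihood test and a model of group and sex, which took in the CTS, BTS and F1 libraries of each tissue, and in a joint fit of both tissues. All tests were two-sided, with Benjamini-Hochberg adjustment over the 15496 brain, 12554 muscle or 16288 joint features that passed the filter. All 60 and 61 members passed it. Each SE is the log2 fold change divided by the root of its F statistic. Levels of single members by group or library are given in TMM-scaled CPM. Mean levels over a tissue, and summed levels of markers or of low-level members, are in CPM of library totals. Correlations used log2 CPM with a prior count of 2. On simulated counts for the mean heat response, the fit recovered 96% of genes changed by 1 on the log2 scale in brain (15304 genes) and 92% in muscle (12309 genes). The changed genes were drawn only above a level that most low-level members did not reach, with the same change in every genotype. Each gene was drawn independently of the others, while the members moved together from library to library. In brain more genes were changed than the 15 features that passed in the data, which eases the adjusted threshold. The recovery therefore does not describe members that move together, low-level members or changes within 1 genotype. It is not a measure of how surely a change in the members would have been found.

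Named members were the markers rplp0.L and RPS19, the listed paralogs and RPS19BP1, the 5 with the highest and the 3 with the lowest mean level, and up to 6 per direction with the smallest p among those that passed a comparison. Others were chosen after their values were seen. Some members are not reported here. Alternatives were DESeq2 1.42.0, RLE scaling, no filter, a strict filter at a mean of 5 CPM, no sex term, robust dispersions, fits of only the groups compared, leaving out shallow libraries, animal 64, animal 76, the libraries with markers of another tissue, or each CTS or BTS library, and the animal as a replicate block. Scaling to the members' reads, library totals, and fits of controls or heated animals only were added after the data were seen. The set of libraries with markers of another tissue was chosen with earlier results known. Animal numbers in the titles pair the tissues, with 42 animals of the compared groups, backcrosses left out, under the same tags in both. Among 339 pairs of libraries of the same group none looked like a repeat deposit (lowest chi-square per degree of freedom 8.82). Sequences of the members were not used here.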

Additional observations from a re-analysis of the deposited data

Results flagged for a closer look

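In groups of 4 to 10 libraries, the gap of the highest or lowest library to its neighbour was set against the group's range by Dixon's 95% limit, which chance passes in about 1 group in 20. Of 71 groups of named members tested, 4 passed it. CTS control 57 had RPL13A (AMEXTC_0340000050864) at 7.54 CPM in brain, where the next CTS control was at 0.658 CPM, and at 9.88 CPM in muscle, where the next was at 0.364 CPM. CTS control 83 had RPL27A (AMEXTC_0340000067525) at 44.3 CPM in muscle, where the next CTS control was at 14.2 CPM. Heated BTS 38 had RPS19 at 2.26 CPM in muscle, where the next heated BTS was at 0.986 CPM.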

How the results depend on the processing

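Counts of members that passed were as follows where they moved by over 1.5 times. In the mean heat response of muscle, where 3 passed, 5 passed with no filter, 1 with the strict filter, 6 with DESeq2, 1 without the libraries with markers of another tissue and 1 with scaling to the members' reads. For BTS minus CTS in brain, where 15 passed, 36, 8, 4 and 4 passed without the libraries with markers of another tissue, with the members' scaling, in controls only and in heated animals only. In muscle, where 29 passed, these were 6, 14, 5 and 6. For F1 against the parental mean in muscle, where 1 passed, 0 passed with no filter, with no sex term, without the shallow libraries, without animal 64, without animal 76 and without the libraries with markers of another tissue, 3 passed with the strict filter and with the members' scaling, and 5 with DESeq2. For brain minus muscle, 55 became 22 with library totals. Fits of only part of the animals have fewer samples, and the cause of the other moves was not tested. The share of all features that passed in each alternative is not given beside these counts, so no move is read as particular to the members.

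Leaving out 1 CTS or BTS library gave 0 to 7 members for the mean heat response in muscle, 0 to 1 for heat in BTS muscle, 11 to 36 and 18 to 41 for BTS minus CTS in brain and muscle, 0 to 3 for F1 in muscle and 54 to 55 for brain minus muscle. For brain minus muscle, the replicate block gave 56 members, and 0 for the difference in heat response between tissues. RPL7L1 turned from -0.99 to 0.030 with library totals, and RPS19BP1 from 0.26 to -0.90 with no filter, -0.79 without the shallow libraries and -0.82 without the libraries with markers of another tissue. Over the compared muscle libraries without the backcrosses, the median share of reads rose from 1.63% to 3.26% with the 20 most abundant features of each library removed. Counts of 0 in other comparisons were 0 under every alternative run. Low copies rest on few reads, and a p that misses the threshold does not show that groups are alike.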
